A study of Lens culinaris with 50 samples.

Results

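A set of 150 genes was followed whose transcripts were well represented in both the embryo and the seed coat of lentil (Lens culinaris, cultivar CDC Gold) at the zygote stage and fell by maturity in both. They were chosen on measured values. Of 58243 genes in the deposited table, 6376 averaged at least 500 normalized reads at the zygote stage in embryo and in seed coat. Of these, 5423 also had a quadrant stage embryo level between 25% and 400% of the quadrant stage seed coat level. These eligible genes were ranked by the smaller of the zygote to mature folds in embryo and in seed coat, with 10 added to each mean, and the top 150 are the members described here. The other 5273 eligible genes serve as the comparison.

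A legume seed passes from a phase of cell division and pattern formation, through a phase in which the cotyledons of the embryo take up reserves, to drying and rest. The embryo arises from fertilization, whereas the seed coat is maternal tissue that grows from the integuments of the ovule, feeds the embryo and ends as a dry cover. Both tissues thus differ in origin and share a schedule. The table pairs 0 of the 150 identifiers with a name, so members are given by identifier, without roles.

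Embryo, seed coat and undissected whole seed were each taken at 8 stages. These run from zygote, quadrant and globular over heart and torpedo to early bent, then late bent, and end at mature. Unfertilized ovule, counted by its label as whole seed, came before them. All groups were of the same cultivar and carried no treatment other than hand pollination after emasculation. The seed coat sample was what was left once the embryo had been taken out by hand, so it need not be seed coat alone. Each of the 25 groups had 2 libraries, called replicates 1 and 2. The labels do not say whether replicates came from separate plants, so p-values speak to the spread between libraries, and that spread may be technical.

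The libraries held 13019472 to 35634980 reads in genes, with a median of 23945567. The share of genes at 0 ran from 13.9% to 56.1%. It was under 25% in both ovule libraries and in 4 others, which were replicate 2 of the mature embryo and of the torpedo, early bent and mature seed coat. Some genes that were far lower in embryo than in seed coat at quadrant had reads in the zygote stage embryo libraries. Of genes with 1000 or more normalized reads in zygote stage seed coat, 213 were under 5% of the seed coat level in embryo at quadrant, and these had a median of 31.7% of the zygote stage seed coat level in embryo at zygote (quartiles 21.1% and 43.7%). Whether these reads came from seed coat or from the embryo itself was not tested. The condition on the quadrant stage keeps such genes out by definition, so 0 of the 150 members are among them. The members' own median was 96.1%.

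By the values that chose them, members were lower at mature than at zygote by 15.5-fold to 267-fold in embryo, with a median of 46.5-fold, and by 15.8-fold to 753-fold in seed coat, with a median of 92.4-fold. The other eligible genes had median folds of 1.13 and 1.04. The smaller fold, which set the rank, was that of the embryo for 116 members and that of the seed coat for 34. Just inside the limit of 150 genes were Lcu.2RBY.2g092310, Lcu.2RBY.6g064930 and Lcu.2RBY.1g042410, with smaller folds of 15.8, 15.8 and 15.5. Just outside were Lcu.2RBY.3g026570, Lcu.2RBY.4g072660 and Lcu.2RBY.5g008600, with 15.5, 15.2 and 15.1, so the limit cuts through a continuous series.

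The course between the ends was a plateau followed by a late drop. In embryo the median member stood at 80.2% of its zygote level at quadrant, 99.0% at globular, 99.9% at heart and 74.2% at torpedo. It then stood at 39% at early bent, 8.97% at late bent and 1.71% at mature. In seed coat the medians were 89.0%, 90.1% and 82.4% up to heart, 49.5% at torpedo, 43.4% at early bent, 2.22% at late bent and 0.626% at mature. The torpedo and early bent values average unlike libraries, since the median was 81.4% in replicate 1 and 14.5% in replicate 2 at torpedo, and 58.4% and 24.7% at early bent. Whole seed, whose libraries took no part in the choice, gave 87.9%, 90.8%, 54.7% and 71.8% from quadrant to torpedo, then 20.9%, 5.92% and 2.96%. Replicates 1 and 2 of whole seed had medians of 28.9% and 69.5% at heart and 9.11% and 28.1% at early bent, and those of the quadrant stage embryo 102% and 52.5%. At late bent all 150 members were under 50% of their zygote level in each of embryo, seed coat and whole seed. The median over the other eligible genes stayed between 88.7% and 120% in embryo and between 94.3% and 104% in seed coat. In such bulk samples, fewer cells with a transcript and less of it per cell cannot be told apart.

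As a share of all normalized reads, the members summed to 5.19% in embryo at zygote and 0.0437% in embryo at mature. In seed coat the sum went from 6.94% to 0.0579%, and in whole seed from 7.46% to 0.0966%. It was 7.40% in the ovule. Most of this drop in share was in place at late bent, where the sum was 0.227% in embryo, 0.167% in seed coat and 0.207% in whole seed. From zygote to late bent the summed share of the other eligible genes also fell. It went from 58.7% to 24.2% in embryo, 56.8% to 40.2% in seed coat and 56.8% to 25.2% in whole seed. Such shares depend on the other transcripts in a library as well as on the members.

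**Figure D1:**
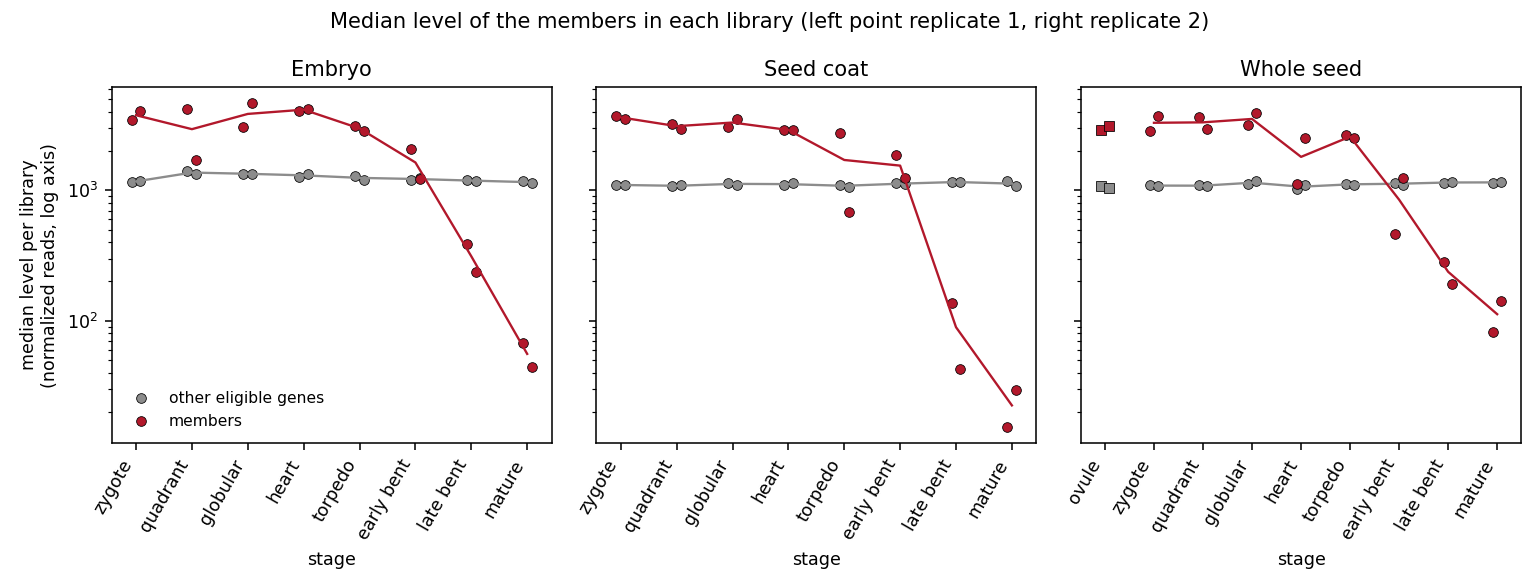
Median level of the 150 members (red) and of the 5273 other eligible genes (grey) in each library, in normalized reads on a log axis, by stage for embryo, seed coat and whole seed with the ovule; paired points are replicates 1 and 2 and lines join the means of the pair. The median of the members lies above that of the other eligible genes in each library up to heart and falls to medians of 59.8, 22.6 and 112 in mature embryo, seed coat and whole seed, and single libraries such as seed coat torpedo replicate 2 lie below their partner.

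The member of highest rank was Lcu.2RBY.5g011620. Its 2 embryo libraries had 17224 and 17697 normalized reads at zygote, 8625 and 8294 at heart, and 4324 and 2783 at early bent. Late bent embryos had 994 and 414 and mature ones 98.1 and 30.3. In seed coat it had 18375 and 17092 at zygote, 13812 and 14229 at heart, 6420 and 1457 at early bent, then 396 and 87.5, and lastly 14.3 and 41.4 at mature. From late bent on, each library was below every earlier library of the same tissue. The next in rank, Lcu.2RBY.7g016870, had 12062 and 11106 in the zygote stage embryo, still 8967 and 5048 at early bent, then 1113 and 344 a stage later and finally 54.9 and 28.6. In seed coat it went from 14753 and 19241 at zygote through 10173 and 4104 at early bent to 530 and 142 a stage later and finally 44.2 and 63.2. In both tissues the second gene kept more of its zygote level at early bent than the first.

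Lcu.2RBY.4g055910, Lcu.2RBY.5g015160 and Lcu.2RBY.4g033330 completed the first 5 ranks, with smaller folds of 219, 191 and 184. Lcu.2RBY.4g055910 had 10847 and 10339 in embryo at zygote and 59.9 and 16.8 at mature, against 11208 and 11927 and then 11.4 and 29.4 in seed coat. Lcu.2RBY.4g034070 held the most reads of any member at zygote, with 71797 and 74308 in embryo and 81168 and 79139 in seed coat. At late bent it still had 8868 and 2661 in embryo and 3456 and 770 in seed coat, and at mature 1005 and 318 and 125 and 202. The gene with the second highest zygote reads in both tissues together, Lcu.2RBY.4g034020, stood close to it in the order of identifiers and ran alike, from 42031 and 42497 in embryo at zygote to 595 and 206 at mature. Reads were not divided by transcript length, so these values say nothing of the order of transcript numbers between genes.

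The stage of the fall was set for each member as the first stage from which its mean stayed under 50% of its zygote mean. In embryo this was early bent for 80 members and late bent for 54, with 10 at torpedo and 6 earlier (3 at quadrant, 1 at globular and 2 at heart). In seed coat it was torpedo for 67, early bent for 38 and late bent for 41, with 4 earlier. In whole seed it was early bent for 130 of the 150. The seed coat came earlier than the embryo for 76 members, at the same stage for 34 and later for 40. That order rests on replicate 2 of the torpedo seed coat: without it 9 members reached this point at torpedo in seed coat and 96 at early bent, and the seed coat was earlier for 53, the same for 51 and later for 46. It also turns with the replicate used, since the seed coat was earlier for 23 and later for 52 members on replicate 1 alone, and earlier for 108 and later for 26 on replicate 2 alone.

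**Figure D2:**
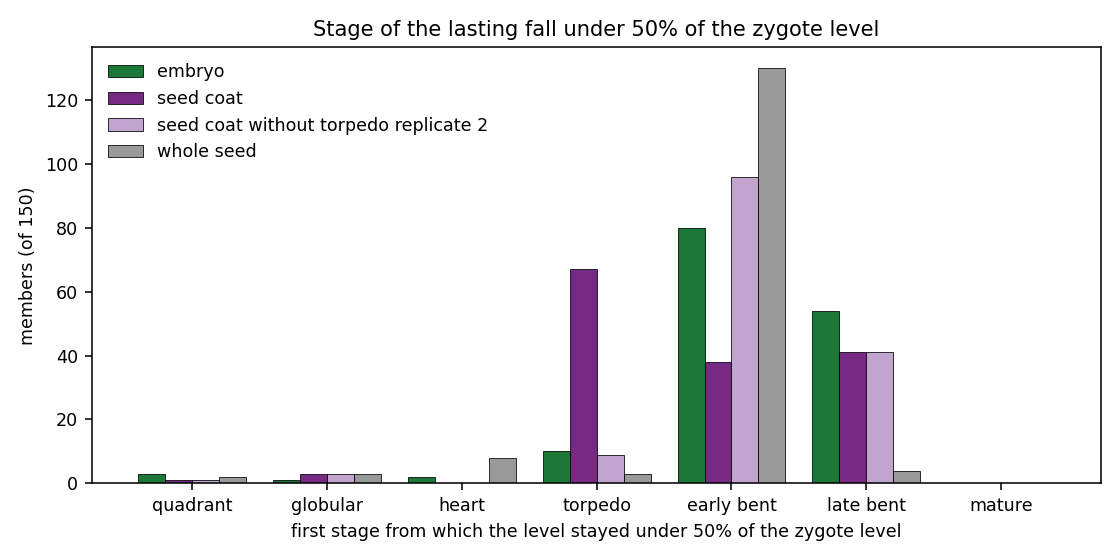
Number of members, of 150, by the first stage from which the group mean stayed under 50% of the zygote mean, for embryo, seed coat, seed coat without torpedo replicate 2, and whole seed. Early bent and late bent take 80 and 54 members in embryo, whereas the 67 members at torpedo in seed coat become 9 without that library.

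Members of the larger classes show the courses behind these counts. Lcu.2RBY.1g058340, with early bent in both tissues, had 15195 and 12442 normalized reads in the torpedo embryo, then 8089 and 4362 at early bent, then 1214 and 523, from 19922 and 18787 at zygote. Lcu.2RBY.5g002210, of the 31 members at early bent in embryo and late bent in seed coat, had 1051 and 546 in the early bent embryo from 3185 and 4322 at zygote. In seed coat it had 1201 and 1331 at early bent, from 2416 and 1940 at zygote, and then 11 and 13 at late bent. Its seed coat replicates lay close together at both stages, so the drop by late bent did not depend on which library was read. Lcu.2RBY.4g034050, of the 16 members with the reverse order, had 8007 and 5570 in the early bent embryo against 10791 and 10255 at zygote, and 8239 and 2570 in the early bent seed coat against 11613 and 11367. There the seed coat replicates were far apart.

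The step that the choice of members did not use, from globular to late bent, was tested in each tissue with limma on log2(normalized reads + 1), with calls made at a fold of 2 or more and an adjusted p (Benjamini-Hochberg, over the 29440 genes tested) under 0.05. All 150 members were among the tested genes. In embryo 147 members fell, where 20.7% of all tested genes did, and 1 rose, where 20.6% did. The members' median log2 change was -3.49, against 0.00 over all tested genes. In seed coat 149 members fell and 0 rose, against 17% and 22.1% of all tested genes, and the median log2 change was -5.65, against 0.38. Since the members were chosen for being low at mature, the direction of this step was partly given by the choice, and the same counts over the other 5273 eligible genes were 1284 lower in embryo and 1175 lower in seed coat. With quantile scaling the share of higher genes among all called genes in seed coat was 46.4% and not 56.6%, while 150 members fell.

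Lcu.2RBY.3g019040 had the largest fall in both tissues by log2 change. Its embryo libraries had 36770 and 30189 normalized reads at globular and 144 and 103 at late bent, a log2 change of -8.08 ± 0.85 (SE, adjusted p = 5.5e-09). Its seed coat libraries had 5948 and 5487 at globular and 2.45 and 0.931 at late bent, which rests on 3 reads in all and gives a ratio of 3637 (95% counting interval 1244 to 17638). Lcu.2RBY.3g040110 was next in embryo, with 14480 and 11640 at globular and 214 and 131 at late bent. Lcu.2RBY.6g069270 was next in seed coat, with 664 and 687 at globular and 0 reads in both late bent libraries, at least 212-fold lower at a floor of 3 counts per library. In each of these cases every late bent library lay below every globular library.

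A few members were not called in this step. In embryo these were Lcu.2RBY.6g056140 and Lcu.2RBY.4g081190. Lcu.2RBY.6g056140 had 5970 and 24311 at globular and 5572 and 2325 at late bent, with globular libraries far apart (log2 change -1.74, adjusted p = 0.10). Lcu.2RBY.4g081190 had 611 and 426 at globular, 2056 and 1216 at torpedo and 363 and 305 at late bent, so both torpedo libraries lay above those of the stages compared. In seed coat it was Lcu.2RBY.1g061180, with 27.9 and 8.93 at globular and 2.45 and 2.79 at late bent (log2 change -2.23, adjusted p = 0.080). This gene was also the riser in embryo, from 4.73 and 2.21 at globular to 183 and 124 at late bent, a log2 change of 5.14 ± 1.04 (SE, adjusted p = 0.00013). It had 607 and 730 in embryo at zygote and 23.3 and 13.5 at mature, so its embryo levels were high at zygote, near 0 from globular to torpedo and up again at late bent.

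The fall from globular to late bent was larger in seed coat than in embryo for many members by a test of the difference itself. The embryo change minus the seed coat change was above 0 for 144 members, with a median of 2.31 on the log2 scale, against -0.27 over all tested genes. It was called above 0 for 64 members, against 15% of all tested genes, and below 0 for 2, against 17.2%. The count above 0 was 42 without late bent seed coat replicate 2. The 2 members with the larger fall in embryo were Lcu.2RBY.6g003680 and Lcu.2RBY.5g007090. Lcu.2RBY.6g003680 fell from 2096 and 1827 to 28.2 and 24 in embryo and from 504 and 455 to 47.7 and 99.6 in seed coat, a difference of -3.40 ± 0.59 (SE, adjusted p = 3.0e-05). Lcu.2RBY.5g007090 fell from 2198 and 2825 to 73.2 and 16.6 in embryo and from 716 and 692 to 196 and 57.7 in seed coat, a difference of -3.39 ± 0.79 (SE, adjusted p = 0.0011).

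**Figure D3:**
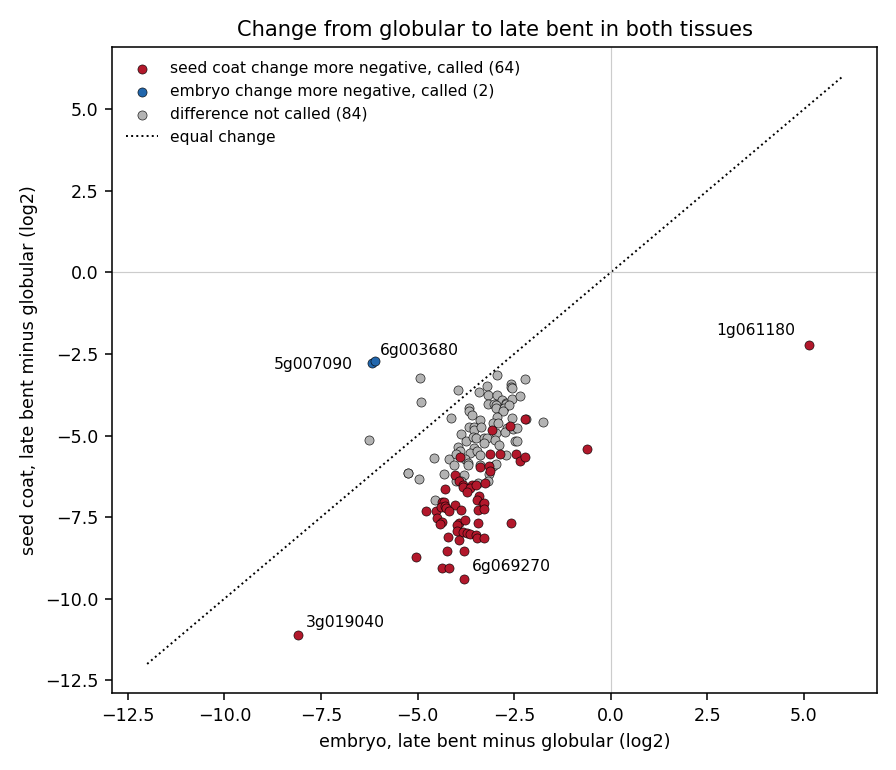
Log2 change from globular to late bent of each of the 150 members in embryo (horizontal) and in seed coat (vertical), with the line of equal change; red marks the 64 members whose seed coat change was called more negative, blue the 2 whose embryo change was called more negative. Most points lie below the line, and Lcu.2RBY.1g061180 alone lies to the right of 0 in embryo.

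From early to late bent, a step that shares its late bent libraries with the one above, 120 members fell in embryo and 0 rose, against 11.4% and 11.7% of all tested genes, with a median log2 change of -2.31. The embryo count was 19 without late bent replicate 2 and 25 without early bent replicate 1. In seed coat 141 fell and 0 rose, against 10.9% and 8.61% of all tested genes, with a median log2 change of -4.28. That count was 93 without late bent replicate 2, and with quantile scaling the share of higher genes among all called genes was 53.2% and not 44.1%. Lcu.2RBY.5g003890 had 1487 and 1406 normalized reads in the early bent seed coat and 6.12 and 3.72 at late bent, a log2 change of -7.96 ± 0.63 (SE, adjusted p = 1.2e-10). In embryo it had 1677 and 861 and then 380 and 233. Lcu.2RBY.6g069270 had 490 and 512 in the early bent seed coat and 0 in both late bent libraries, at least 158-fold lower at the same floor.

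Between the tissues, the median member was nearer to parity up to early bent than at late bent. The median embryo level was 101% of the seed coat level at globular, 116% at heart, 143% at torpedo, 87.8% at early bent and 410% at late bent, where the other eligible genes had 122%, 120%, 118%, 115% and 108%. At globular 7 members were called higher in embryo and 1 in seed coat, against 12.1% and 15% of all tested genes. At heart the counts were 9 and 3, against 11.1% and 16%. At early bent they were 7 and 8, against 13.8% and 27.7%. The other eligible genes, which met the same condition on the quadrant stage ratio between the tissues, had 8.57% and 4% at globular, 10.7% and 5.37% at heart, and 18.3% and 8.52% at early bent. That condition on the members limits tissue differences, so their counts are in part set by how they were chosen.

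At torpedo 31 members were called higher in embryo and 2 in seed coat, against 13.8% and 27.6% of all tested genes, and 18.9% and 5.82% of the other eligible genes. The members' share higher in embryo, 20.7%, was thus near that of the other eligible genes, and the count of 31 was 8 without seed coat replicate 2 and 81 without seed coat replicate 1. At late bent 83 were called higher in embryo and 3 in seed coat, against 17.7% and 23.1% of all tested genes and 18.9% and 12.4% of the other eligible genes, with a median log2 difference of 2.08, against -0.28 over all tested genes. The late bent count ran from 68 to 95 when any library of the comparison was left out. With quantile scaling the share of higher in embryo among all called genes was 54.5% and not 33.3% at torpedo, 54.3% and not 33.2% at early bent, and 53.9% and not 43.4% at late bent.

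Lcu.2RBY.5g004230 shows the late bent difference, with 699 and 294 normalized reads in embryo and 7.34 and 2.79 in seed coat, a log2 difference of 6.34 ± 0.56 (SE, adjusted p = 1.0e-10). At early bent it had 2805 and 1184 in embryo and 104 and 42 in seed coat, and at zygote 3534 and 3398 against 2990 and 3110. At torpedo it had 3454 and 2633 in embryo and 476 and 335 in seed coat, a log2 difference of 2.91 ± 0.56 (SE, adjusted p = 9.6e-05). It was called higher in embryo at each of torpedo, early bent and late bent, and not at globular or heart. Lcu.2RBY.7g007250 ran the other way. It had 1694 and 1999 in embryo at zygote and 14.1 and 0 at late bent, whereas in seed coat it had 547 and 555 at zygote, 198 and 40.5 at torpedo and still 42.8 and 37.2 at late bent, a log2 difference of -3.40 ± 0.83 (SE, adjusted p = 0.0010). In embryo most of its reads were gone by globular, at 137 and 103.

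In whole seed the fall from zygote to mature, measured on libraries outside the choice, was called for all 150 members, where 17.8% of all tested genes were called lower and 17.7% higher. The median log2 change was -5.12 and the range -9.05 to -2.40. In all 150 both mature libraries lay below both zygote libraries, a count that was not made over other genes. Lcu.2RBY.1g071970 had 6549 and 14104 normalized reads at zygote and 53.3 and 81.6 at mature, a log2 change of -7.17 ± 0.99 (SE, adjusted p = 7.3e-07). Lcu.2RBY.1g010930 had 1064 and 1170 at zygote and 3.44 and 0 at mature, which is 2 reads in all and gives a ratio of 585 (95% counting interval 162 to 4830). At heart the whole seed mean lay below those of both embryo and seed coat for 135 members and at early bent for 127. At mature it lay above both for 120. Other genes were not counted in this way, so these positions are not shown to be particular to the members. At heart and early bent replicate 1 was the lower library, with member medians of 1110 against 2506 at heart and 463 against 1234 at early bent. Whole seed contains both tissues, so the comparison of mature with zygote is a repeat on other libraries and not on other tissue.

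Most members had reads in the ovule at levels not far from those at zygote. The ovule had a median of 90.7% of the whole seed zygote level (quartiles 73.0% and 107%), against 98.3% for the other eligible genes, and 4 members were under 50%. Both zygote libraries lay above both ovule libraries for 53 members and below them for 12. These counts were not made over other genes, so they do not set the members apart. By limma 2 members were higher at zygote and 0 were lower, against 1.64% and 2.27% of all tested genes, and with quantile scaling the share of higher genes among all called genes was 54.7% and not 42%. Both exceptions had few reads in ovule. Lcu.2RBY.1g010930 had 5.67 and 2.40 in ovule and 1064 and 1170 at zygote, a log2 difference of 7.88 ± 1.10 (SE, adjusted p = 1.7e-05). Lcu.2RBY.1g061180 had 67.4 and 46.3 in ovule and 1458 and 830 at zygote, a log2 difference of 4.27 ± 1.04 (SE, adjusted p = 0.014), and this call was lost without any of the 4 libraries. In embryo Lcu.2RBY.1g010930 had means of 788 at zygote and 290 at quadrant. It was low there from globular on, with 17.7 and 17.7 at globular, where seed coat had 206 and 91.5.

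Not all members were highest at zygote. In embryo the highest group mean was at zygote for 51, quadrant for 27, globular for 22, heart for 49 and torpedo for 1. In seed coat it was at zygote for 100, globular for 28, quadrant for 11, heart for 9 and early bent for 2. These stages were not counted for other genes and do not weigh the spread between replicates. Few members passed 200% of their zygote level. In embryo 4 did so at quadrant and 3 at each of globular, heart and torpedo. In seed coat 1 did so, at early bent. Lcu.2RBY.3g019040 went in embryo from 1663 and 2201 at zygote through 7815 and 8423 at quadrant to 36770 and 30189 at globular, then had 22373 and 27374 at heart, 8823 and 8827 at torpedo and 56.5 and 18.5 at mature. In seed coat the same gene had 6254 and 5187 at zygote, 4301 and 4029 at heart, 120 and 8.60 at early bent and 0.713 and 12 at mature. At early bent its embryo libraries had 4231 and 2040, a log2 difference between the tissues of 6.43 ± 0.85 (SE, adjusted p = 3.8e-07). Lcu.2RBY.3g040110 had a course of the same shape, from 2281 and 2757 in embryo at zygote to 14480 and 11640 at globular. In seed coat, Lcu.2RBY.L017850 was highest at quadrant, with 17788 and 10449 against 6261 and 8335 at zygote.

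The members were divided by how their replicates differed, at a cut of 50% set only after the values were known and given here as a description. Values ran on across this cut, with 49.5% for Lcu.2RBY.1g061180 and 50.4% for Lcu.2RBY.1g076100 in whole seed at heart. In whole seed at heart, 76 members had under 50% of the replicate 2 level in replicate 1, and 64 of these had under 25%, while the other 74 did not. In the quadrant stage embryo, whose libraries are others, 81 members had under 50% of the replicate 1 level in replicate 2. Of the members, 72 were under 50% in both places and 65 in neither, so the same genes were low in whole seed heart replicate 1 and embryo quadrant replicate 2. Of the other eligible genes 13.7% were under 50% at heart in whole seed, against 50.7% of members, and 96.8% of those were also under 50% in the quadrant stage embryo. The pattern is thus not limited to members. In seed coat torpedo replicate 2, 142 members were under 50% of replicate 1, 75 of the 76 and 67 of the 74, against 14% of the other eligible genes.

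**Figure D4:**
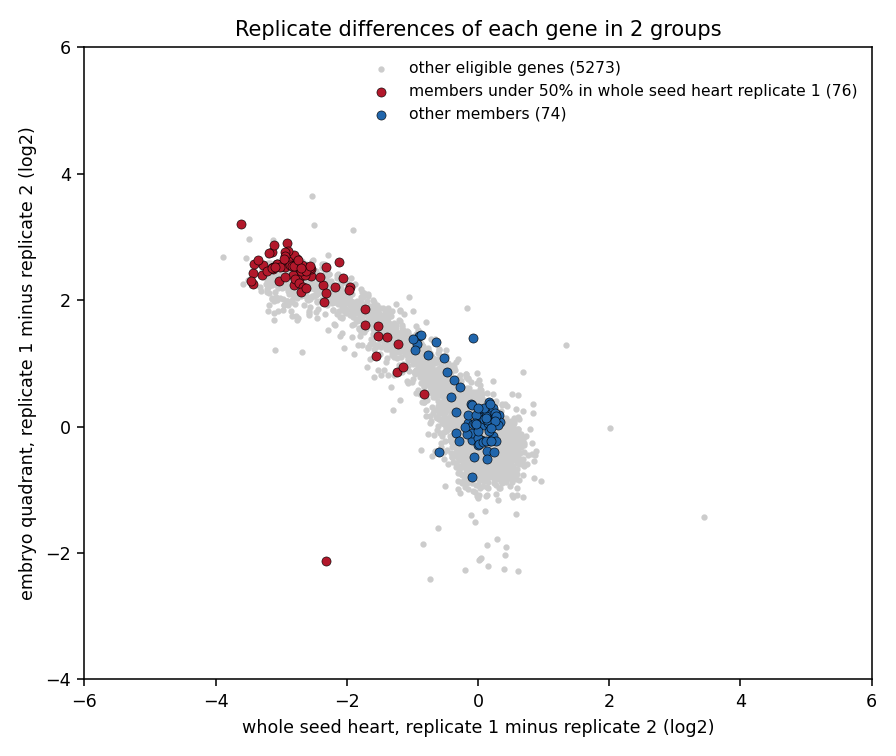
Log2 difference between replicates 1 and 2 in whole seed at heart (horizontal) and in the quadrant stage embryo (vertical) for the 76 members under 50% in whole seed heart replicate 1 (red), the 74 other members (blue) and the 5273 other eligible genes (grey). Grey points trace the same band as the members, and most red points lie at its upper left end while most blue points lie near 0. The division into red and blue was made on the horizontal values.

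The groups also differ in level, in course and in place. At zygote the 76 had median levels of 10558 in embryo and 10953 in seed coat, against 1643 and 1628 for the 74. The 76 had a median of 55.7% of the zygote level in the early bent embryo and 3.23% in the late bent seed coat. The other 74 had 28.6% and 0.780%. In embryo, the fall under 50% came at late bent for 42 of the 76 and at early bent for 58 of the 74. At late bent 19 of the 76 and 64 of the 74 were called higher in embryo than in seed coat, with median log2 differences of 1.45 and 3.39. The division used a replicate difference, and the fit takes the spread of each gene from all 25 groups. The counts of calls are thus in part set by the division. The replicates of the late bent stage also differed more for the 76. Their median level was 1221 and 415 in the late bent embryo and 455 and 116 in the late bent seed coat, against 170 and 114 and 14.1 and 11.6 for the 74. In whole seed at early bent the 74 were the more divided, with medians of 114 and 646, against 1447 and 2864. The 76 took 42 of the first 50 ranks, 20 of the next 50 and 14 of the last 50.

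**Figure D5:**
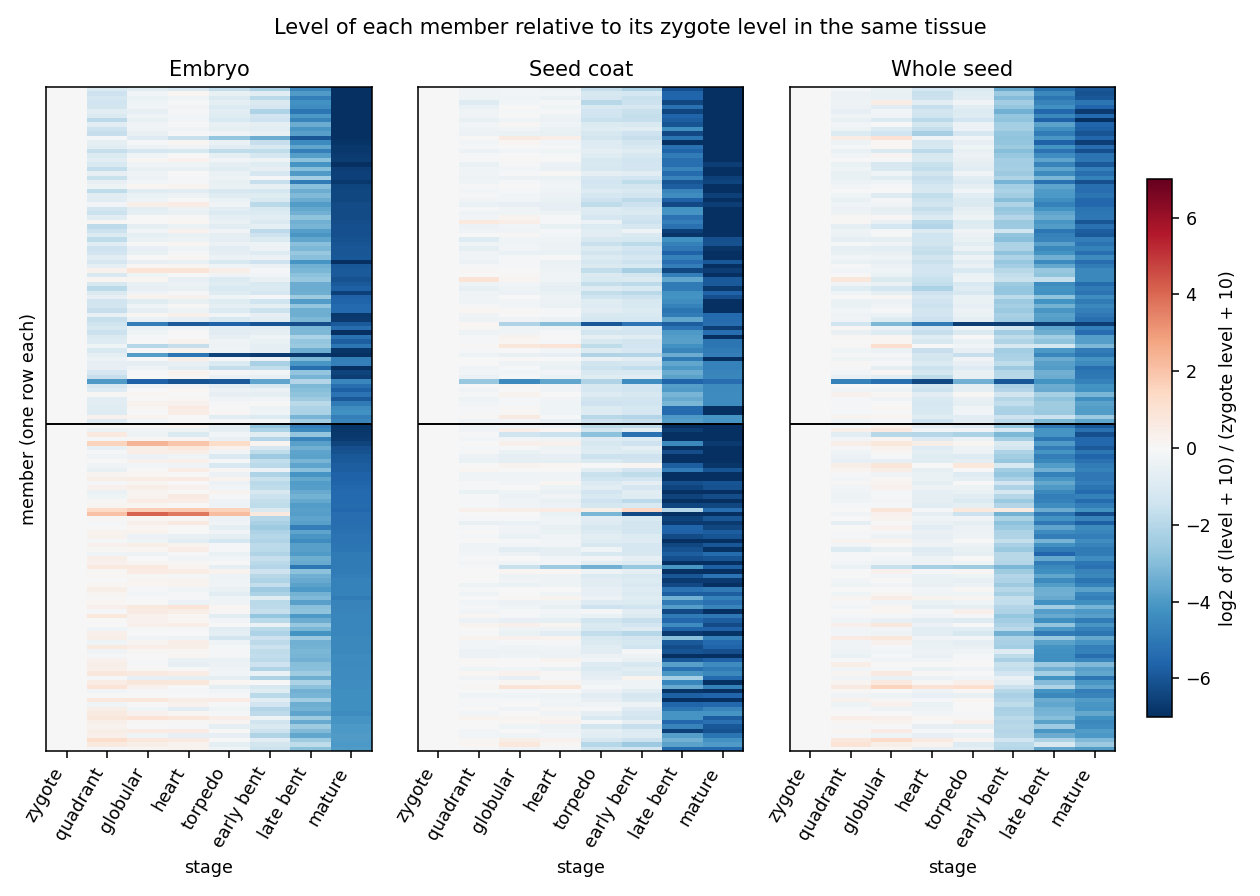
Log2 of level relative to zygote (10 added to each mean) for each member by stage in embryo, seed coat and whole seed, 1 row per member; the black line divides the 76 members under 50% in whole seed heart replicate 1 (above) from the 74 others (below), each in order of rank. Above the line the quadrant embryo and the heart whole seed are a deeper blue than the stages beside them, and below it the early bent embryo and the late bent seed coat are deeper than above it. The heart whole seed libraries set the division, so their contrast across the line is in part given by it.

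The members were spread over the genome by the chromosome label in their identifiers. Chromosomes 1 to 7 held 21, 26, 19, 27, 16, 23 and 16 members and 2 were unplaced, with shares between 10.7% and 18% for the chromosomes, where all tested genes had 12.3% to 16.7%. In the order of identifiers, 33 members formed 15 runs in which each is listed within 2 places of the next, with at most 3 members. On chromosome 2, Lcu.2RBY.2g091730, Lcu.2RBY.2g091740 and Lcu.2RBY.2g091750 formed one such run, and Lcu.2RBY.2g091790, Lcu.2RBY.2g091800 and Lcu.2RBY.2g091810 formed another. Of the 15 runs, 14 consisted wholly of members among the 76 above and 1 of members among the 74. Runs were not counted for other sets of genes, so these numbers do not set the members apart. Of 266 genes listed beside a member but not chosen, 37 met the conditions on level and quadrant ratio. The median smaller fold of these 37 was 0.984. Neighbouring genes can be near-identical copies between which reads are split or shared, and the values of the single genes in runs are uncertain in that respect.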

How the data were processed

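RNA-seq libraries were prepared with a low-input kit, per the labels' protocols. Of tools, the submitters' processing notes list featureCounts, DESeq2, CASAVA and Trimmomatic, with no version and no role. Aligner and genome build, not given in the sources used here, stay unnamed. Signal values, as deposited, were made by the authors from gene read counts with 1 factor per library, since 100% of values are whole multiples of 1 read's worth (tolerance 0.001 reads); they are called normalized reads.

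The 150 members and the lists were chosen with earlier results of these data known. The main test was limma 3.58.1 (R 4.3.3, trend and robust) on log2(value + 1), 1 coefficient for each of 25 groups and 25 residual degrees of freedom, on the 29440 of 58243 genes with at least 10 in at least 2 libraries. Adding 1 understates changes of genes with few reads. Contrasts of zygote, quadrant or mature embryo and seed coat were described, not tested. edgeR 4.0.16 and DESeq2 1.42.0 were run on whole reads recovered from the values, with the same factors. The fit was tested on simulated data. Intervals and floors (95%, 3 counts) cover counting error only. Replicates differed by more than sampling noise in each group (mean chi-square per gene 7.48 to 141.7).

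Genes were named by rule: the first 5 in rank, those at the limit, the 3 with most zygote reads, the called members with the largest fold in each comparison with replicates apart, the highest in rank of each class of fall with 5 or more members, and those highest after zygote. Runs of neighbouring genes and members that were not called were named after their values were seen. Alternatives were pseudocounts of 0.5 and 8, no filter or a filter of 50, no fold required, TMM and quantile scaling, only the compared groups, a replicate block, lists of 100 or 200 genes, ranking offsets of 1 and 50, leaving out each library, and edgeR and DESeq2. Leaving out the 4 libraries with few genes at 0 and the order of fall by replicate were added after seeing the data.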

Additional observations from a re-analysis of the deposited data

Results flagged for a closer look

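Members whose change from globular to late bent differed between embryo and seed coat, by the interaction term of the limma model, are listed here because the effect of 1 contrast differs between tissues. There were 64 members with a more negative change in seed coat and 2 with a more negative change in embryo. Lcu.2RBY.1g061180 had a difference (embryo change minus seed coat change, log2) of 7.37, Lcu.2RBY.6g069270 of 5.60, Lcu.2RBY.6g003680 of -3.40 and Lcu.2RBY.5g007090 of -3.39. The value of Lcu.2RBY.1g061180 rests on 6 reads in the globular embryo and 5 in the late bent seed coat, and that of Lcu.2RBY.6g069270 on 0 reads in the late bent seed coat.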

How the results depend on the processing

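Whether equal replicate numbers pair the samples is not known from the labels. The correlations of replicate differences ran from -0.317 to 0.208 within the comparisons and from -0.466 to 0.536 over all 300 pairs of groups. With the replicate number as a block, 146 members fell in embryo and 149 in seed coat from globular to late bent. No count of calls moved by over 1.5 times with that block. The counts for whole seed (150 lower), for globular to late bent and for higher in embryo at late bent (68 to 95) stayed within 1.5 times under all alternatives run, with 100 to 148 for globular to late bent in embryo when single libraries were left out. The cause of the following shifts was not tested. From early to late bent the embryo count was 76 with no filter and 19 to 121 without single libraries, with 1 riser when only the compared groups were fitted; the seed coat count was 93 to 143. The interaction count above 0 was 42 to 75. Zygote against ovule gave 1 without any single library. At globular, members higher in embryo were 3 with quantile scaling, 11 with only the compared groups and 4 to 6 without single libraries. The lower ones were 0 with a pseudocount of 0.5, with no filter and without any single library, 2 with a pseudocount of 8, quantile scaling, edgeR, DESeq2 and after leaving out the 4 libraries of few zeros, and 3 with only the compared groups. At heart 3 were higher with quantile scaling and 4 to 6 without single libraries. At torpedo, members higher in embryo were 7 with only the compared groups, 8 without the same 4 libraries, 16 by edgeR, 17 by DESeq2 and 8 to 81 without single libraries, and 1 to 2 were lower. At early bent, 18 were lower with only the compared groups, 14 by DESeq2 and 3 to 9 without single libraries, and 5 to 16 were higher. At late bent, 0 were lower with only the compared groups and 0 to 3 without single libraries. The choice of members itself shared 90 genes with that from replicate 2 alone and 137 with that from replicate 1 alone; the seed coat fell earlier for 23 to 108 members on 1 replicate alone. Of 607 values for named genes under alternatives, 575 kept their call, 32 lost it and 0 changed sign. Median shifts over all genes were -0.18 to 0.15 (log2) with TMM and reached 0.55 with quantile scaling.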
